A study of Mus musculus with 12 samples.

Results

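The S100 genes described here were chosen by name: S100a1, S100a4, S100a6, S100a8, S100a9, S100a10, S100a11, S100a13 and S100g. A gene entered when the symbol column of both deposited tables held its name, which was the case for 8 of the 9 genes, among 50433 rows of one table and 50434 of the other. S100g was not analysed here. RNA had been sequenced from wild-type male C57BL/6J mice after renal ischemia-reperfusion injury (IRI), a clamping of both renal pedicles that causes acute kidney injury. All mice had IRI and received alanyl-glutamine dipeptide or saline vehicle intravenously, and cells were isolated 24 hours after IRI. The study's sources differ on when the dose was given. Renal tubular epithelial cells (TECs) were sorted from kidney as CD45-negative and Prominin-1-positive cells, and neutrophils (PMN) came from blood. Each cell type was measured in 3 glutamine and 3 vehicle libraries, 12 in all. No label says which mice gave both cell types, and the p-values measure the spread between these libraries only.

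S100 proteins are small calcium-binding proteins with EF-hand motifs. Most form dimers that change shape with calcium and then grip a target, and several are also released from cells, where they act on receptors such as Tlr4 and Ager (RAGE). S100a8 and S100a9 form calprotectin, a major protein of the neutrophil cytosol and a danger signal. S100a10 (p11) binds annexin A2 and plasminogen at the cell surface, and S100a6 (calcyclin) is known from proliferating cells and epithelium.

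All 8 genes lie on chromosome 3 (GRCm38, GENCODE M21). S100a1, S100a13, S100a4, S100a6, S100a8 and S100a9 fall within 184.7 kb at chr3:90511034-90695721, and S100a11 and S100a10 within 44.2 kb at chr3:93520488-93564643. S100a1 and S100a13 point away from each other from neighbouring starts. S100a4 overlaps the annotated gene Gm42674 on the same strand, so reads can be shared between them and its values are less certain.

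RefSeq promoters (GRCm38.p6, 250 bases before to 50 after the start) were at hand for 7 of the 8 genes, all but S100a10. Those of S100a8, S100a9 and S100a4 are shown because these genes separated the cell types most widely, and that of S100a6 because its groups did not overlap in TECs. Capitals mark matches on either strand to the TATA box (letters TATAAA) and the C/EBP motif (letters TTNCNNAA).
S100a8, chr3:90668821-90669120, plus strand: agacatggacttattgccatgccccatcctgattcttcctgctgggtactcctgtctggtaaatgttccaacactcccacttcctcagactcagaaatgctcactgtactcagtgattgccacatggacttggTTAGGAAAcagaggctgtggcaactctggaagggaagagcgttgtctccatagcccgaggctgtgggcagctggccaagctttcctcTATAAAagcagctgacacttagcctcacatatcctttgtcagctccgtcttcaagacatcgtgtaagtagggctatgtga
S100a9, chr3:90695672-90695971, minus strand: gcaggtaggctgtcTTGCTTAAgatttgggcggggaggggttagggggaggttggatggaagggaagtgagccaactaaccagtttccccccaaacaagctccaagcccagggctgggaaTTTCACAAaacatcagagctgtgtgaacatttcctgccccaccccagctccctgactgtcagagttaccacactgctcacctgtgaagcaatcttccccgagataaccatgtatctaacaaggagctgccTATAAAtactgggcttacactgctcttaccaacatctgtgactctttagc
S100a4, chr3:90603520-90603819, plus strand: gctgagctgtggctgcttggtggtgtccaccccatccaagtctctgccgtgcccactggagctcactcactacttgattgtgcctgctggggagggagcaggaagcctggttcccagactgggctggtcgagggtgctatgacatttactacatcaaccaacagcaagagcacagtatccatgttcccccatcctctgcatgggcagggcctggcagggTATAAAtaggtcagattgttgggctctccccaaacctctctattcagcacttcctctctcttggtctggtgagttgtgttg
S100a6, chr3:90612644-90612943, plus strand: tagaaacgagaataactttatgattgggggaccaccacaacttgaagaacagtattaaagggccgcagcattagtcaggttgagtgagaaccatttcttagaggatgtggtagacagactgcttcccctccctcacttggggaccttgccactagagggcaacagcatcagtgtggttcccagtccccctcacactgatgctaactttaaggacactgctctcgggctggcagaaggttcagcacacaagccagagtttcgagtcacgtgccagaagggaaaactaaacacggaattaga

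TATAAA was found in 3 of the 7 promoters, S100a4, S100a8 and S100a9, against 13.6% of 32851 mouse promoters of the same length. Relative to the start it began at -31 in S100a4 and -30 in S100a8, but at 1, the annotated start itself, in S100a9. TTNCNNAA was found in 2, S100a8 and S100a9, against 40.7% of all. TGANTCA (AP-1) was found in S100a11 alone, against 7.81%, and TGACNNNGC (antioxidant element core) in none, against 12.4%. An NF-kB type motif (3 G, any 5 bases, 2 C) was found in 5 of the 7, against 50.8%, and is not capitalised. Among these, the promoters of S100a1 and S100a13 overlap and share the same matches, read from opposite strands. Both strands were searched for each of the 5 motifs. A match describes the letters and shows no binding.

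The libraries held 5397370 to 10223461 counts in TECs and 20225246 to 21878446 in PMN. Levels are given as CPM (counts scaled to one common library total), and fold changes come from edgeR's quasi-likelihood test with TMM scaling. That scaling lifts glutamine over vehicle by 0.17 on the log2 scale in TECs and by 0.04 in PMN relative to library totals. The sort marker Prom1 ranged from 70.3 to 80.1 CPM in TECs, and Ptprc, which encodes CD45, from 0.101 to 2.57. Some PMN libraries stood apart from their label. Vehicle replicate 1 held 19106 CPM of Spp1 and 990 CPM of the tubular gene Umod, and in vehicle replicate 2 the 5 endothelial markers summed to 1777 CPM, against at most 59.7 CPM in the glutamine libraries. The 10 macrophage and dendritic cell markers summed to 11253 to 26085 CPM in PMN, beside 10108 to 21735 CPM for the 12 neutrophil markers. Fewer cells of a type and less RNA per cell cannot be told apart in such bulk libraries.

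S100a8 and S100a9 were among the most abundant transcripts of PMN and far lower in TECs. S100a8 had 18233, 12625 and 26049 CPM in PMN vehicle replicates 1, 2 and 3. It had 26040, 15004 and 6511 CPM in PMN glutamine replicates 1, 2 and 3. It ranked between 1 and 13 among all genes of a PMN library, and the pair made up 1.32% to 4.74% of all PMN counts. In TECs S100a8 ranged from 6.73 to 98.4 CPM and S100a9 from 3.92 to 71.1 CPM. The mean level in PMN was 404-fold that in TECs for S100a8 and 410-fold for S100a9, and the lowest PMN library exceeded the highest TEC library by 66.2-fold and 94.4-fold. S100a8 counts stood at 0.971 to 1.62 per S100a9 count in PMN and at 1.05 to 1.73 in TECs.

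S100a4, which binds non-muscle myosin in moving cells, averaged 461 ± 205 CPM in PMN and 13.9 ± 6.56 CPM in TECs (SD, n = 6), a 33.3-fold ratio. S100a11, a partner of annexin A1, averaged 2180 ± 628 CPM in PMN and 564 ± 139 CPM in TECs (SD, n = 6), a 3.86-fold ratio. Every PMN library lay above every TEC library for both, as for S100a8 and S100a9. S100a1, known for calcium handling in muscle, was the reverse. It averaged 234 ± 38.3 CPM in TECs and 42.6 ± 25.8 CPM in PMN (SD, n = 6), 5.49-fold higher in TECs with no overlap. S100a1 had 0 counts in PMN glutamine replicate 1, which allows up to 0.142 CPM (3 counts), beside 29.3 to 72.4 CPM in the other PMN libraries.

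For S100a6, S100a10 and S100a13 the cell types overlapped. S100a6 averaged 506 CPM in PMN and 139 CPM in TECs, and its ranges no longer overlapped without TEC vehicle replicate 3 or without PMN glutamine replicate 3. S100a10 averaged 933 CPM in TECs and 525 CPM in PMN. S100a13, which takes part in the release of Fgf1, averaged 54.5 CPM in TECs and 31.9 CPM in PMN. Cell type, count table and sequencing run cannot be told apart, so these are descriptions without a test.

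**Figure D1:**
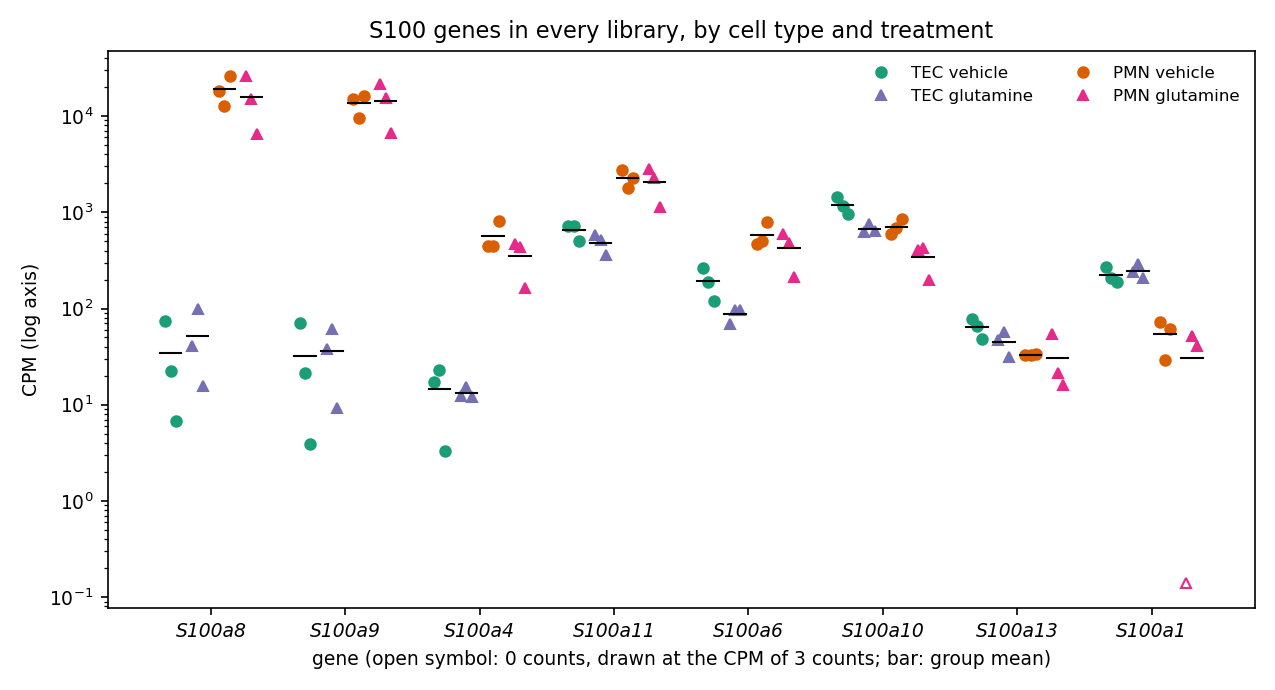
CPM (log axis) of 8 S100 genes in each of 12 libraries, circles for vehicle and triangles for glutamine, with bars at group means; the open triangle is a library with 0 counts, drawn at 0.142 CPM. S100a8, S100a9, S100a4 and S100a11 lie higher in every PMN library than in every TEC library, and S100a1 lies lower.

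Per kb of transcript, the order of mean levels in TECs was S100a10 (1605 CPM per kb), S100a11 (1104), S100a1 (373), S100a6 (233), S100a8 (88.7), S100a13 (76.2), S100a9 (66.4) and S100a4 (33.2). Only the step from S100a11 to S100a1 parted neighbours whose ranges did not overlap. In PMN the order was S100a8 (35824 CPM per kb), S100a9 (27225), S100a11 (4267), S100a4 (1106), S100a10 (904), S100a6 (847), S100a1 (68) and S100a13 (44.6). Here the steps below S100a9, S100a11 and S100a6 parted ranges that did not overlap.

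The second question was whether glutamine moved these genes. In edgeR's test with its default expression filter no S100 gene passed an adjusted p of 0.05 in either cell type, and neither did any other gene. There 0 of 14734 genes passed in TECs and 0 of 10130 in PMN (0% in each). At an unadjusted p below 0.05 there were 1878 genes in TECs (12.7%) and 346 in PMN (3.42%). DESeq2 called 190 genes in TECs (1.11%, with 0.204% lower) and 304 in PMN (2.73%, with 1.24% lower), with 0 of the 8 S100 genes among them.

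In TECs S100a6 and S100a10 were lower in all 3 glutamine libraries than in all 3 vehicle libraries, without passing the adjusted test. Of all tested genes, 15.4% were separated in that direction and 5.51% were lower at an unadjusted p below 0.05, beside 2 of the 8 S100 genes by either measure. Glutamine libraries lay above all vehicle libraries for 5.63% of genes and for 0 S100 genes, which makes 21% separated in either direction.

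S100a6 had 265, 188 and 121 CPM in TEC vehicle replicates 3, 4 and 5, and 68.7, 97.5 and 96.6 CPM in glutamine replicates 1, 2 and 3. Vehicle replicate 5 lay nearest to the glutamine libraries. The log2 fold change was -0.94 ± 0.27 (SE; edgeR adjusted p = 0.236), and DESeq2 gave an adjusted p of 0.062. Without an expression filter, which tests more genes, edgeR gave S100a6 an adjusted p of 0.00996, the only call among the 8 S100 genes chosen, where 425 of 29116 genes (1.46%) were called. Over the alternatives its adjusted p reached 0.511. S100a6 also stands in a gene list that the study drew from these TEC libraries, so its direction is not independent evidence.

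S100a10 had 1442, 1167 and 962 CPM in TEC vehicle replicates 3, 4 and 5, and 630, 761 and 635 CPM in glutamine replicates 1, 2 and 3. The log2 fold change was -0.64 ± 0.20 (SE; edgeR adjusted p = 0.25), with 0.11 to 0.563 over the alternatives. S100a10 followed S100a6 across the 6 TEC libraries (Pearson r of log2 CPM 0.963), a likeness that 516 of 7577 compared genes shared at r of 0.9 or more. The genes most like S100a6 were Arf1 (r = 0.997), M6pr (0.993) and Nprl3 (0.992).

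Havcr1 lay lower with glutamine in the same TEC libraries. Havcr1, which encodes kidney injury molecule-1, had 868, 590 and 105 CPM in vehicle replicates 3, 4 and 5, and 90.3, 45.6 and 24.6 CPM in glutamine replicates 1, 2 and 3. Its log2 fold change was -3.08 ± 0.65 (SE; edgeR adjusted p = 0.178), and DESeq2 called it (adjusted p = 0.0473). Its adjusted p ranged from 3.4e-29, with no expression filter, to 0.51 over the alternatives. The 9 injured tubule markers summed to 4797 to 14235 CPM with vehicle and 4768 to 7598 CPM with glutamine, 7 of the 9 lying lower (49.4% of all genes) and 1 of them at an unadjusted p below 0.05 (5.51% of all genes). The part of injured cells in the S100a6 and S100a10 values was not tested.

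**Figure D2:**
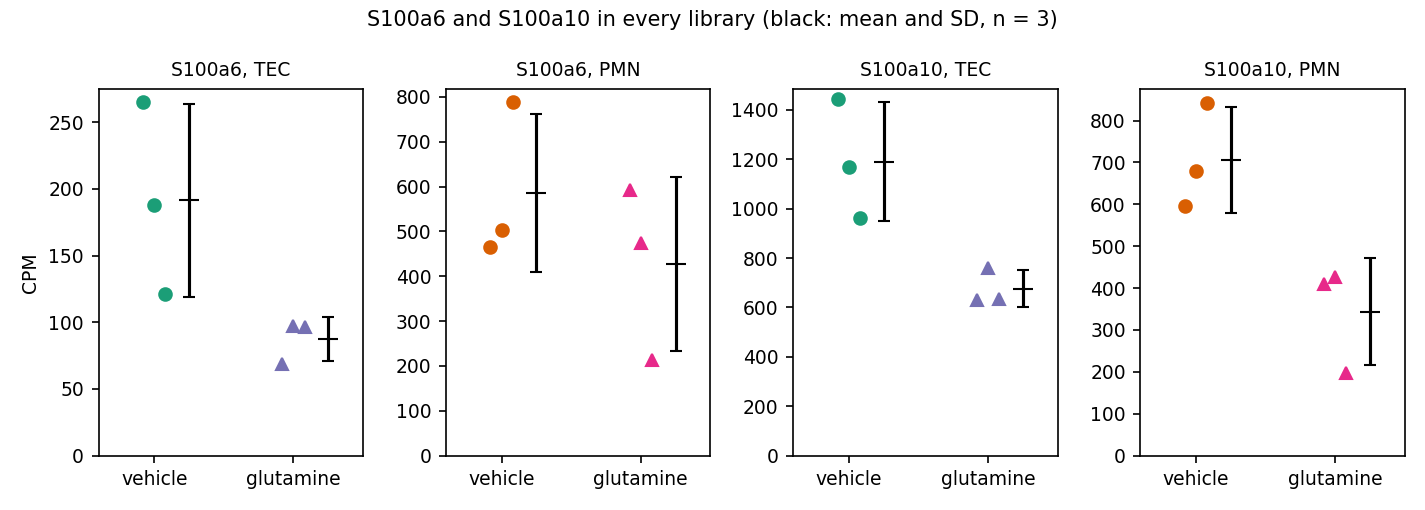
CPM of S100a6 and S100a10 per library, with the mean and SD of 3 libraries in black. In TECs both genes separate the groups, while in PMN S100a10 does and S100a6 overlaps.

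In PMN S100a10 was again lower in every glutamine library. It had 595, 680 and 843 CPM in vehicle replicates 1, 2 and 3, and 409, 426 and 197 CPM in glutamine replicates 1, 2 and 3. The log2 fold change was -0.99 ± 0.37 (SE; edgeR adjusted p = 1), and 4.91% of all PMN genes were separated in that direction, 1.37% being lower and 2.04% higher at an unadjusted p below 0.05. Separation upwards was seen for 5.63% of genes and 0 S100 genes, so 10.5% were separated in either direction. Without vehicle replicate 1 it was -1.10, without vehicle replicate 2 it was -1.03, and without glutamine replicate 3 it was -0.71. The unadjusted p was no longer below 0.05 without vehicle replicate 2, without vehicle replicate 3, in DESeq2 or with upper-quartile scaling. Some cell type markers also differed between these groups. Ptprc (mean 479 CPM with vehicle, 884 CPM with glutamine) and Csf1r (365 and 635 CPM) were higher in every glutamine library. Ptprc does not mark other cells, since the study also identified neutrophils by CD45. Of the 10 macrophage and dendritic cell markers 8 lay higher. Their sum overlapped between the groups, at 11534 to 23891 CPM with vehicle and 11253 to 26085 CPM with glutamine. Endothelial Cdh5 was lower in every glutamine library (DESeq2 adjusted p = 0.00493). The 5 endothelial markers together overlapped, summing to 17.7, 1777 and 2.7 CPM in vehicle replicates 1, 2 and 3. In glutamine replicates 1, 2 and 3 they summed to 53, 13.3 and 59.7 CPM. The part of other cell types in the S100a10 values was not tested.

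Of the 8 S100 genes, 7 had a negative log2 fold change in PMN (median -0.29), beside 50% of all genes (median 0.00). Without glutamine replicate 3 the count fell to 4 of 8 and the median was 0.05, and without glutamine replicate 1 it was 8 of 8 with a median of -0.84. Glutamine replicate 3 had the lowest CPM of the 6 PMN libraries for every S100 gene but S100a1, with 164 CPM of S100a4, 214 CPM of S100a6 and 1144 CPM of S100a11. Its 10 macrophage and dendritic cell markers summed to 26085 CPM, against 11253 to 23891 CPM in the others, and its 12 neutrophil markers to 10942 CPM, against 10108 to 21735 CPM. Single neutrophil genes went either way there, Csf3r (1764 CPM) and Mmp9 (1288 CPM) being the highest of the 6 libraries and Retnlg (2784 CPM), Ly6g (48.5 CPM) and Ngp (46.2 CPM) the lowest. The part of other blood cells in these values was not tested. The log2 fold changes were -0.62 ± 0.48 for S100a4, -0.40 ± 0.45 for S100a6, -0.19 ± 0.51 for S100a8 and 0.14 ± 0.43 for S100a9 (SE), all with adjusted p = 1 in edgeR. S100a11 gave -0.08 ± 0.37 and S100a13 -0.03 ± 1.05 (SE). S100a1 gave -0.84 ± 1.94 (SE), a value that rested on the library at 0 counts: it was -0.28 without glutamine replicate 1, -1.48 without glutamine replicate 2 and -3.69 in limma-voom.

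The other 6 S100 genes overlapped between the groups in TECs. The log2 fold changes were 0.31 ± 0.21 for S100a1, 0.07 ± 0.52 for S100a4, -0.25 ± 0.22 for S100a11 and -0.32 ± 0.26 for S100a13 (SE), with edgeR adjusted p from 0.567 to 0.968. In TECs 4 of the 8 lay lower (median -0.09), beside 49.4% of all genes (median 0.01). The count was 7 (median -0.28) without glutamine replicate 2 and 6 (median -0.38) without vehicle replicate 5.

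**Figure D3:**
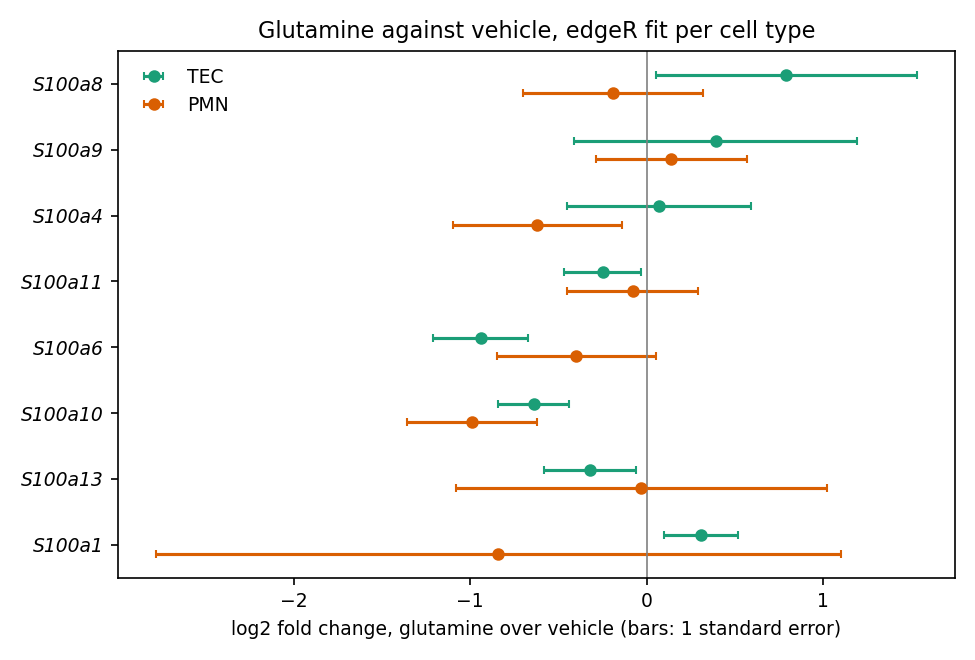
Log2 fold change of glutamine over vehicle for 8 S100 genes in TECs and PMN, with bars of 1 standard error from the edgeR fits. S100a6 and S100a10 in TECs and S100a10 in PMN lie farthest below 0 for their errors.

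S100a8 and S100a9 varied widely among the TEC libraries of each group, which overlapped. S100a8 had 74.5, 22.5 and 6.73 CPM in vehicle replicates 3, 4 and 5, and 40.8, 98.4 and 15.8 CPM in glutamine replicates 1, 2 and 3. Its log2 fold change of 0.79 ± 0.74 (SE; edgeR adjusted p = 0.681) became -0.10 without glutamine replicate 2 and 1.99 without vehicle replicate 3. S100a9 gave 0.39 ± 0.80 (SE; edgeR adjusted p = 0.871). Over the 6 TEC libraries the log2 CPM of S100a8 was most like that of Ank3 (r = 0.995), Mpnd (0.986) and S100a9 (0.980), with S100a1 at 0.978, and 54 of 7577 genes reached 0.9.

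Neutrophil markers varied as well, not all in the same way. Retnlg had 26, 6.85 and 2.31 CPM in TEC vehicle replicates 3, 4 and 5 and 12.1, 18.2 and 2.57 CPM in glutamine replicates 1, 2 and 3. Glutamine replicate 2, the highest library for S100a8, was also the highest of the 6 for Ly6g (1.67 CPM), Mmp8 (5.56 CPM), Mmp9 (3.52 CPM), Fpr1 (8.52 CPM) and Cd177 (0.741 CPM), but had the lowest Itgam (0.926 CPM) and 0 counts of Csf3r. These were low values, of 9 counts for Ly6g, 30 for Mmp8, 19 for Mmp9, 46 for Fpr1 and 4 for Cd177. The library was the smallest (5397370 counts), and 3 counts there make 0.556 CPM. Vehicle replicate 3 had 32 counts of Mmp8, and glutamine replicate 1 had 23 of Mmp9. S100a8 in TECs stood at 0.0387% to 0.565% of its mean in PMN and Retnlg at 0.0345% to 0.389%. Cxcr2 departed from this, at 4.77% to 11.6%. The 12 neutrophil markers summed to 60.5 to 126 CPM in TECs, most of it Cxcr2 at 36.3 to 88.6 CPM. Cd177 was at 0 counts in 5 of the 6 TEC libraries and at 90.3 to 769 CPM in PMN. Camp and Ltf, also at 0 in 5 TEC libraries, were at 0 in 3 of the 6 PMN libraries too. The part of neutrophil RNA in the TEC values of S100a8 and S100a9 was not tested.

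**Figure D4:**
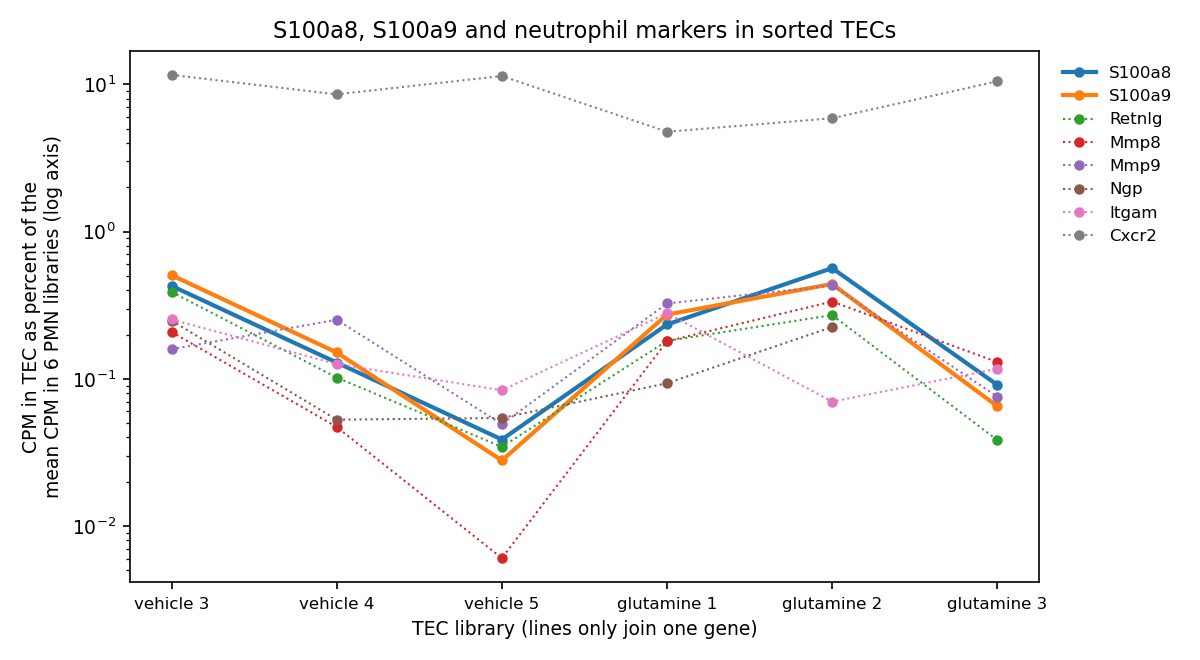
CPM of S100a8, S100a9 and neutrophil markers in each TEC library, as a percent of the mean of 6 PMN libraries (log axis); values of 0 are left out. S100a8, S100a9 and Retnlg are lowest in vehicle replicate 5, and Cxcr2 stays between 4.77% and 11.6%.

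Partners of the S100 proteins were described from lists. Of 11 tested annexins and other partners in TECs, 4 were lower in every glutamine library (15.4% of all genes) and 2 were lower at an unadjusted p below 0.05 (5.51% of all genes). Cacybp, the calcyclin-binding protein that S100a6 contacts, gave -0.97 ± 0.26 (SE; edgeR adjusted p = 0.218) and Anxa5 gave -0.63 ± 0.25 (SE; edgeR adjusted p = 0.334). Anxa2, the partner of S100a10, overlapped at -0.14 ± 0.20 (SE; edgeR adjusted p = 0.802). In PMN 0 of 11 partners reached an unadjusted p below 0.05, and Anxa2 gave -0.25 ± 0.33 (SE).

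Receptors of S100 proteins did not pass a test in either cell type. In TECs 7 of 9 tested receptors and signalling genes lay lower (49.4% of all genes), and in PMN 5 of 10 (50%). In both cell types 0 reached an unadjusted p below 0.05, beside 12.7% of all genes in TECs and 3.42% in PMN. Of this list, 1 gene was lower in every glutamine library in TECs (15.4% of all genes). In PMN 1 was lower (4.91%) and 1 higher (5.63%) in every glutamine library. Cd14, a co-receptor of Tlr4, averaged 90.4 ± 42.4 CPM in vehicle TECs and 48 ± 11 CPM in glutamine TECs (SD, n = 3; edgeR adjusted p = 0.397). In PMN Cd14 stood at 10759 ± 1574 and 11328 ± 1494 CPM (SD, n = 3). Of the plasminogen system around S100a10, 4 of 4 tested genes lay higher in TECs (median 0.31) and 3 of 4 in PMN, with 0 at an unadjusted p below 0.05. The PMN list was uneven, since Plat, the tissue plasminogen activator, gave -8.41 ± 3.97 (SE; edgeR adjusted p = 1) and -1.62 without vehicle replicate 2. The summed level of the list was 13549 CPM in that library and 848 to 1920 CPM in the others.

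Epithelial calcium transport genes, the setting in which S100g acts, had log2 fold changes above 0 in TECs for 7 of 9 genes (median 0.47). Of these, 2 reached an unadjusted p below 0.05. Other tubule markers also had log2 fold changes above 0, beside 49.4% of all genes below 0. They were 8 of 8 distal convoluted and connecting tubule genes (median 0.55), some of them on both lists. Above 0 were also 7 of 8 proximal tubule genes (median 0.55). So were 3 of 3 thick ascending limb genes (median 0.14) and 5 of 7 collecting duct genes (median 0.10). The summed CPM of each list overlapped between the groups. Higher in every glutamine library were 1 of 3 thick ascending limb genes and 2 of 8 proximal tubule genes (5.63% of all genes). So were 1 of 8 distal and 0 of 7 collecting duct genes. Slc12a1 of the thick ascending limb gave 1.30 ± 0.32 (SE; edgeR adjusted p = 0.208), and DESeq2 called it (adjusted p = 0.0108). Proximal Slc22a6 gave 0.60 ± 0.21 (SE; edgeR adjusted p = 0.275) and Slc5a2, at 1.27 to 13 CPM, 2.06 ± 0.67 (SE; edgeR adjusted p = 0.256). Other fold changes were smaller than the TMM lift of 0.17. Umod averaged 1487 CPM with vehicle and 1436 CPM with glutamine, Cldn16 6.63 and 6.37 CPM, and Lrp2 176 and 167 CPM. Over the alternatives, which include leaving out 1 library, the log2 fold changes of Umod, Cldn16 and Lrp2 went down to -0.16, -0.38 and -0.07. The part of these tubule segments in the calcium transport values was not tested. Calb1, a calcium buffer of the distal tubule, had 29.6, 28.2 and 25.1 CPM in vehicle replicates 3, 4 and 5, and 43.8, 43 and 38.6 CPM in glutamine replicates 1, 2 and 3. Its log2 fold change was 0.77 ± 0.21 (SE; edgeR adjusted p = 0.223). Pvalb gave 1.76 ± 0.69 (SE; edgeR adjusted p = 0.332), and 1.34 (without vehicle replicate 4 or glutamine replicate 2) to 2.99 (without vehicle replicate 5) when 1 library was left out. Over the alternatives the adjusted p of Pvalb ranged from 0.0119, which passes the threshold, to 0.664. Across all genes 7.23% were higher at an unadjusted p below 0.05.

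Among 8 further S100 genes, 4 were tested in TECs, of which 3 lay higher (median 0.51), and 2 in PMN. S100a7a, a low gene with 0 to 17.2 CPM in TECs, gave 2.07 ± 1.02 (SE; edgeR adjusted p = 0.425) with overlapping groups, and an adjusted p of 0.0124 in the fit with no expression filter. Leaving out 1 library gave 1.36 (without glutamine replicate 2) to 4.08 (without vehicle replicate 5). S100a16, a widely expressed member, averaged 78 ± 28.3 CPM in vehicle TECs and 43.8 ± 12.9 CPM in glutamine TECs (SD, n = 3), a log2 fold change of -0.65 ± 0.29 (SE; edgeR adjusted p = 0.387) with overlapping groups. In PMN S100a16 had 68.8 CPM in vehicle replicate 2 and 22 CPM in glutamine replicate 3, and at most 0.917 CPM in the other 4. S100a3, S100a5, S100a14, S100b and S100z had 0 counts in all PMN libraries.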

How the data were processed

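RNA-Seq was measured in 6 TEC and 6 PMN libraries (reads of 50 bases). The authors deposited estimated counts, summed by gene symbol and without normalization. The submitters' processing notes name Trim Galore 0.6.4, Salmon 1.0.0 and mm10. In the PMN table, whose other values are also estimated counts, 3.20% of 605208 cells held surplus points and 0.39% held dates left by a spreadsheet. Only the final point was kept, as the decimal mark, dates were restored to numbers, and both columns of a library were averaged (r = 0.995 to 0.996, against 0.771 to 0.824 between libraries). It had been planned as plain counts.

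Counts were rounded. edgeR 4.0.16 (R 4.3.3; TMM, default expression filter, quasi-likelihood test, Benjamini-Hochberg adjusted p below 0.05) was fitted per cell type on all genes. Standard errors came from the fold change and the F statistic. DESeq2 1.42.0, limma 3.58.1, other scalings and filters, and leaving out each library were alternatives. Scripts were tested on simulated data. The S100 genes and all lists were chosen with earlier results of these data known. Genes named from a list were the 3 or fewer with the smallest unadjusted p, plus defining markers and partners named for a member; likeness was compared among tested genes of at least 10 CPM. The limit given for 0 counts covers counting error only.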

Additional observations from a re-analysis of the deposited data

How the results depend on the processing

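No paired analysis was possible because PMN numbers only follow accession order and TEC groups have no replicate number in common but 3. The count of genes past the adjusted threshold was 0 in both cell types. In TECs DESeq2 gave 190 and a fit with no expression filter 425, and leaving out 1 library gave 0 to 36, with 36 without glutamine replicate 2 and 4 without vehicle replicate 5. In PMN DESeq2 gave 304 and leaving out 1 library 0. Among the 8 chosen S100 genes the count past the threshold was 0 throughout, except 1 (S100a6, -0.96) in TECs with no expression filter. With predicted, Rik, sensory receptor and mitochondrial genes left out of the CPM, 2 S100 genes instead of 1 were lower in every PMN than in every TEC library, S100a10 joining S100a1; the count higher in PMN was again 4. Leaving out 1 library gave 4 to 5 members higher in PMN, 5 without TEC vehicle replicate 3 or PMN glutamine replicate 3. Without division by transcript length 5 of the ranks changed.

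Log2 fold changes turned direction in 15 of the fits of S100 genes, 13 of them made without 1 library. Leaving out each TEC library in turn gave -0.39 (without vehicle replicate 5) to 0.56 for S100a4, -0.10 (without glutamine replicate 2) to 1.99 for S100a8 and -0.25 (without glutamine replicate 2) to 1.71 for S100a9. S100a4 was also below 0 without glutamine replicate 2 (-0.07) and S100a9 without vehicle replicate 5 (-0.13). In PMN the range was -0.87 to 0.18 (without glutamine replicate 3) for S100a8, -0.36 (without glutamine replicate 1) to 0.48 for S100a9, -0.45 to 0.22 (without glutamine replicate 3) for S100a11 and -0.86 to 0.27 (without glutamine replicate 3) for S100a13. Direction also turned without vehicle replicate 3 for S100a8 (0.08), without vehicle replicate 2 for S100a9 (-0.07), without vehicle replicate 1 for S100a11 (0.08) and without glutamine replicate 2 for S100a13 (0.17). The other turns were S100a4 in TECs with library totals only (-0.14, chosen after seeing the data) and S100a13 in PMN with upper-quartile scaling (0.03). The cause was not tested. S100a6 and S100a10 stayed below 0 in every fit of both cell types.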
